A study of Mus musculus with 37 samples.

Results

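This report describes the open reading frames (ORFs) called as translated in mouse dendritic cell cultures, for 10 genes. Of these, 7 are of the hypoxia pathway (Hif1a, Arnt, Vhl, Egln1, Egln2, Egln3 and Vegfa) and 3 are named for PIM kinases (Pim1, Pim2 and Pim3). The ORFs named Pim2 may belong to another gene. An ORF is the run of codons that a ribosome can read between a start and the next stop in its frame. Members were selected on the gene name of each deposited ORF, that is, on the authors having scored the ORF as translated, and 26 of 22367 ORFs carried one of these names, in 10 of 10418 families of ORFs with a common gene name. Cells were grown from bone marrow of C57BL/6J mice of 6 to 8 weeks, and ribosome footprints, the RNA pieces that translating ribosomes shield from nuclease, were sequenced from 37 libraries. Lipopolysaccharide (LPS), a bacterial cell wall component, was given at 100 ng/mL. Cycloheximide, which arrests elongating ribosomes, was used at 100 ug/mL for 1 min in 16 LPS libraries (2 at each of 8 times from 0.5 to 12 h), 2 libraries of naive cells and 8 mock-treated libraries at the same times. Another 8 LPS libraries and 1 of naive cells had no inhibitor. A single library each had harringtonine (1 ug/mL, 5 min) and lactimidomycin (50 ug/mL, 30 min), drugs that stall ribosomes at start codons, and both pooled several LPS times with 0 h, that is, with unstimulated cells.

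The labels name 1 ORF list for all libraries. It gives each ORF a position and a whole-number score of the authors, from 500 to 991, but nothing for a single library. No comparison of LPS with mock or of inhibitors was therefore made, the depth is unknown and no value has a replicate error. The members were chosen by their presence in the list, so what follows is a description without tests. Of the dendritic cell markers, 10 of 11 had a listed ORF, among them Itgax, Zbtb46 and H2-Ab1, while Flt3 had none. Markers of other cells were listed too, with 5 of 5 for macrophages and monocytes, 6 of 6 for neutrophils, 2 of 3 for mast cells, 1 of 3 for B cells and 0 of 3 for T cells. A list of calls cannot say which of the cells in the culture a member's ORF came from.

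Cells sense oxygen through HIF1A, a transcription factor subunit that is made continuously and destroyed when oxygen is present. EGLN prolyl hydroxylases use oxygen to mark HIF1A, and VHL, the recognition subunit of a ubiquitin ligase, binds the marked protein and sends it to the proteasome. When it escapes this, HIF1A pairs with ARNT and turns on genes such as Vegfa, a secreted growth factor for blood vessels, and Egln3. In myeloid cells, LPS also raises HIF1A through NF-kB. PIM proteins are serine/threonine kinases that need no activating phosphorylation, so that their activity follows the amount of protein, and cytokine signals through STAT factors induce them.

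All 10 gene names had at least 1 ORF in the list, and none had an ORF upstream of its longest ORF. Across all families, 20.2% had an upstream ORF, those reaching over the main start included. The count of 0 takes the single listed ORF of Egln2, of 32 codons, as its main ORF. When main ORFs of under 100 codons with 1000 or more bases after the stop were counted as upstream, a setting chosen after seeing the data, 1 of 10 genes (Egln2) had one beside 22.1% of families. The 26 ORFs began at 20 different starts and ended at 11 different stops. The longest ORF of each gene, called the main ORF here, made up 10 of them, and 11 used another in-frame start with the stop of the main ORF. Another 4 were splice variants that kept both ends of the main ORF, and 1 lay inside a main ORF in another frame. Other in-frame starts were found in 5 of the 10 genes (Hif1a, Vhl, Egln3, Pim1 and Pim2), beside 23.0% of all families. Such variants of splicing were found in 3 (Hif1a, Arnt and Vegfa), beside 17.7% of all families, and 3 genes (Egln1, Egln2 and Pim3) had a single ORF, beside 43.7%.

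**Figure D1:**
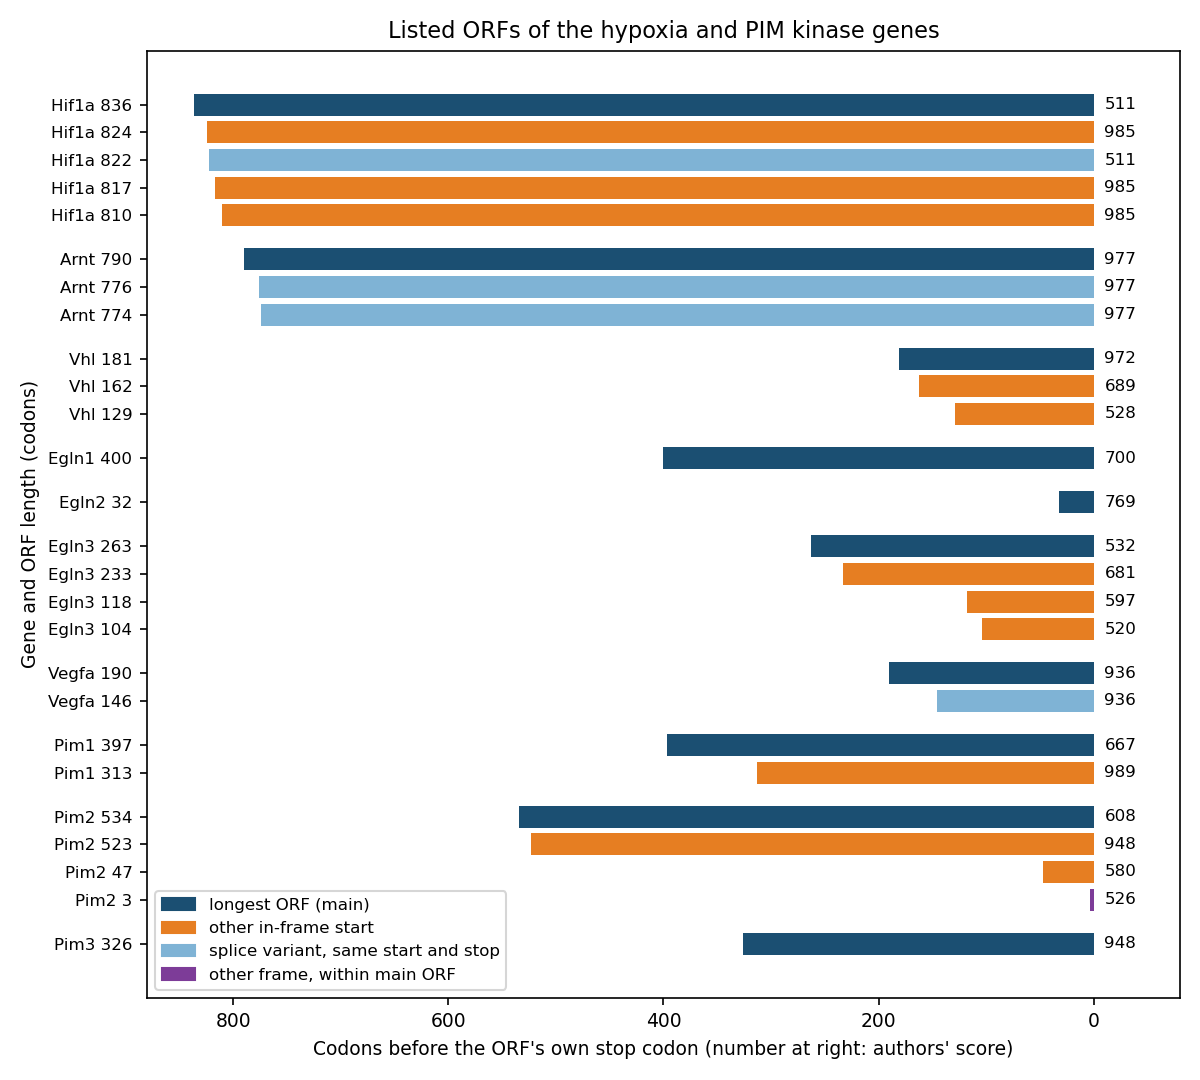
Length of each of the 26 listed ORFs in codons, drawn back from its own stop codon, with the authors' score at the right and colours for the kind of ORF. Hif1a has 5 ORFs of 810 to 836 codons, of which the 3 from the inner start score 985, and Egln2 has a single bar of 32 codons.

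Scores of the main ORFs ran from 511 in Hif1a to 977 in Arnt. Their median was 734.5, beside 926 for the main ORFs of all families, and 4 of 10 were at or above that value. When the best-scoring ORF of each gene was taken instead, the median was 948 beside 941 for all families, with 6 of 10 at or above it. A shorter in-frame ORF scored above the longest in 4 genes, Hif1a, Pim1, Pim2 and Egln3, and in the first 3 of these the main score was below 926, the median of all main ORFs, and the best score above 941, the median of all best scores. Families with such an ORF made up 10.6% of all families, and 45.9% of the 2396 families that had another in-frame start. The ORFs named Pim2, which may belong to another gene, count among the 4 genes and enter the member medians. The lowest-scoring member ORFs, those of Hif1a at 511, lay just above the lowest score in the list, 500, and nothing below that score was analysed here.

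**Figure D2:**
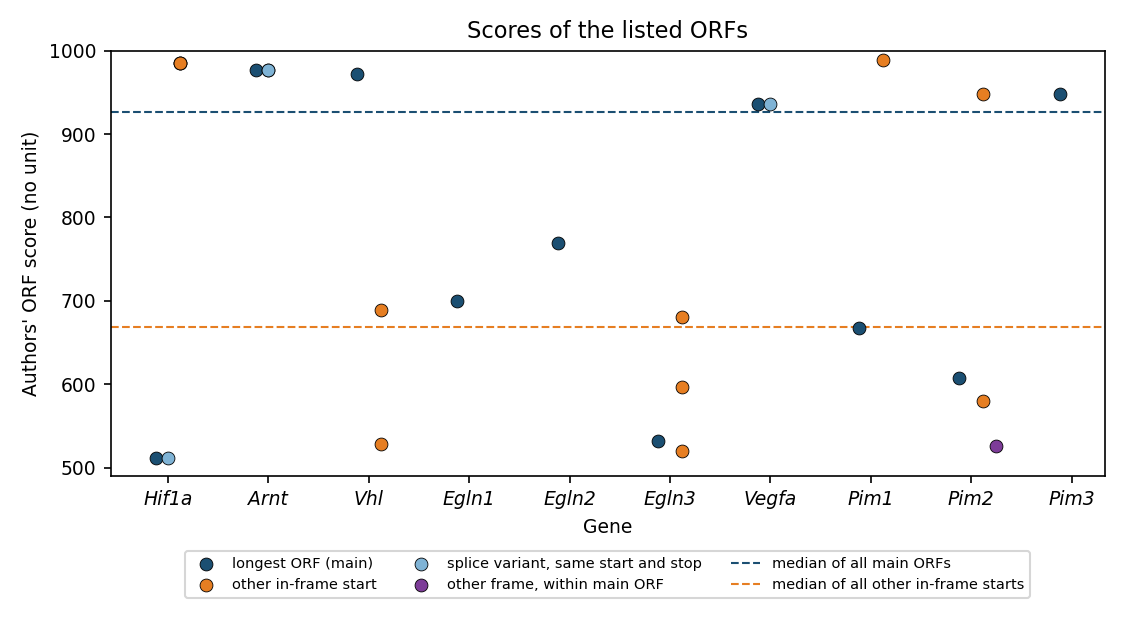
Authors' score (vertical axis, no unit) of each of the 26 ORFs by gene, coloured by kind of ORF, with dashed lines at the medians of all main ORFs (926) and of all other in-frame starts (669). In Hif1a, Pim1 and Pim2 an orange point lies above the dark blue one, while in Vhl both orange points lie below it.

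Hif1a, the oxygen-regulated subunit itself, had 5 ORFs from 2 starts with a common stop. The outer start, at chromosome 12, 75009277 (mm9, counted from 1, as are all positions here), gave ORFs of 836 and 822 codons, both with a score of 511. The inner start, at 75027545 in the second exon, gave ORFs of 824, 817 and 810 codons, all with a score of 985. The inner start lay 12 codons inside the longest ORF and scored 474 above the outer one. Among the 2396 families with another in-frame start, 1 had a larger gain over its main ORF, and the median difference was -29 with quartiles of -243 and 181.

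Splicing rather than start choice separated the other Hif1a ORFs. A stretch of 42 coding bases at 75042675 to 75042716 was in the 836-, 824- and 817-codon ORFs and absent from the 822- and 810-codon ORFs. Another of 21 bases, at 75038767 to 75038787, was missing from the 817-codon ORF. That ORF lay on a transcript whose first exon began 6521 bases before that of the other transcripts. This transcript did not hold the outer start, and its leader (the bases before the start codon) had 154 bases against 459 and 462 for the other ORFs from the inner start. The inner start was held by all 4 listed Hif1a transcripts, which have 2 different first exons. ORFs from a common start had a common score at all 4 member starts with several ORFs, and at 74.7% of the 2749 such starts in the list, so these scores are not independent.

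**Figure D3:**
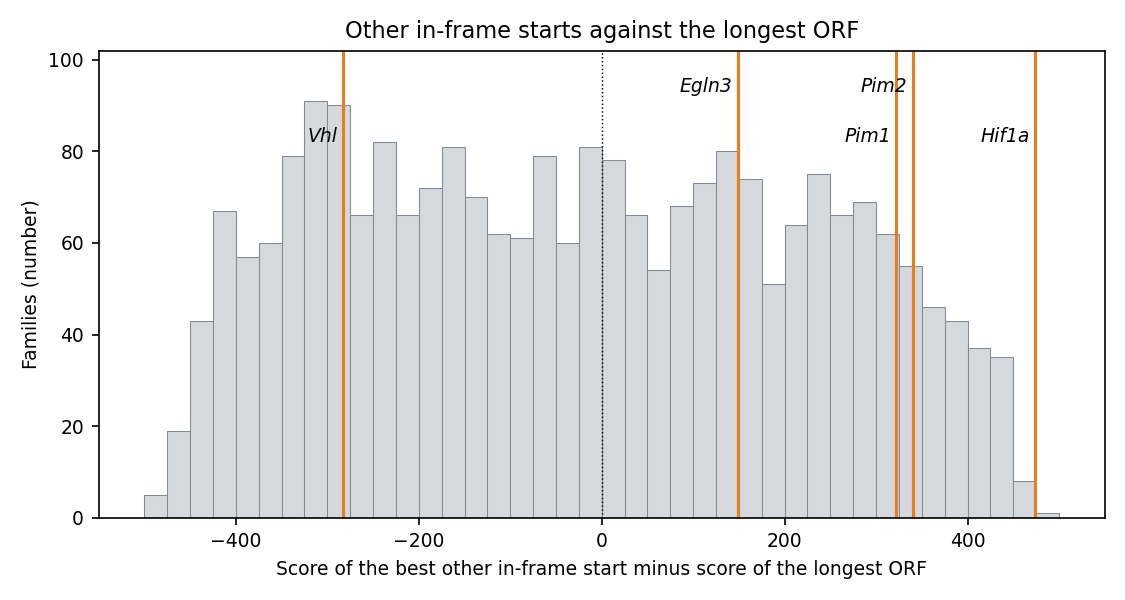
Histogram over 2396 families (vertical axis, number of families in bins of 25 score units) of the score of the best other in-frame start minus the score of the longest ORF, with orange lines at the 5 member genes. Hif1a at 474 is at the right edge, Pim1 (322) and Pim2 (340) lie above the upper quartile of 181, and Vhl at -283 lies below the lower quartile of -243.

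Arnt, the constant partner of HIF1A, had 1 start, at chromosome 3, 95238459, and 3 splice variants of 790, 776 and 774 codons. All 3 scored 977, a value above that of 80.7% of all main ORFs. The 790-codon ORF held an exon of 45 bases, at 95270715 to 95270759, that the shorter ORFs lacked. The 776- and 774-codon ORFs differed by 6 bases at 95294945 to 95294950, and both held 3 bases, at 95297620 to 95297622, that the longest lacked. No other start was listed in Arnt, so its ORFs differed by splicing within the coding sequence alone.

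Vhl, which recognises hydroxylated HIF1A, had 3 nested in-frame starts on a single transcript of 3 exons at chromosome 6, 113574015 to 113581627. The ORFs had 181, 162 and 129 codons, with scores of 972, 689 and 528. In human cells VHL is known to be made in a long and a short form from an internal start of the same mRNA. Here the first internal start lay 19 codons and the second 52 codons inside the main ORF. In contrast to Hif1a, the outermost start had the highest score, and the first internal start differed from it by -283. Families with 2 or more other in-frame starts made up 5.37% of all families and 3 of the 10 members (Vhl, Egln3 and Pim2).

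The listed ORFs of the 3 prolyl hydroxylase genes had lower best scores than those of the other members. Egln1, the main oxygen sensor that acts on HIF1A, had a single ORF of 400 codons with a score of 700 at chromosome 8, 127434608 to 127472954. Egln2 had a single ORF of 32 codons with a score of 769. This ORF is far shorter than the known enzyme, so for ORFs of enzyme length the low scores rest on Egln1 and Egln3. Egln3, itself a HIF target, had 4 ORFs with a common stop and scores of 520 to 681. The best score of Egln1 was above that of 5.72% of families, that of Egln2 above 10.4% and that of Egln3 above 4.06%. The other 7 genes, with the ORFs named Pim2 included, had best scores of 936 to 989.

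The ORFs of Egln3 had 263, 233, 118 and 104 codons with scores of 532, 681, 597 and 520, all on 1 transcript of 5 exons. The 233-codon ORF began 30 codons inside the longest, at chromosome 12, 55304530 on the minus strand, and had the highest score of the 4. The starts of the 118- and 104-codon ORFs lay in the second exon, 145 and 159 codons inside the longest ORF and 14 codons from each other. Families with 3 or more other in-frame starts made up 1.21% of all families, and Egln3 was the single member among them. No start in Egln3 scored above 681, so no one start stood out as in Hif1a or Pim1.

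The Egln2 ORF differed in kind from the others. It began 52 bases from the start of its transcript, with 67 of its bases in the first exon and 32 in the second, at chromosome 7, 27950716 to 27951769. It took up 5.02% of the 1972 bases of the transcript, while the median over all main ORFs was 48.8%, and 1821 bases followed its stop. The stop lay 1265 bases before the last exon junction. Main ORFs of under 100 codons with 1000 or more bases after the stop were found in 2.70% of families, and main stops more than 50 bases before the last junction in 6.25%. The known EGLN2 enzyme is far longer than this ORF. A longer ORF of Egln2 was not among the listed ones, and the listed ORF was counted as main because it was alone.

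Exon lengths set the listed Egln2 transcript apart from its relatives as well. The internal exons of Egln1 had 120, 137 and 68 bases and those of Egln3 120, 137 and 74 bases, all coding. The Egln2 transcript, in the same 5′ to 3′ order, had exons of 119, 1109, 120, 68 and 556 bases, with no exon of near 137 bases between those of 120 and 68. Whether this bears on the absence of a longer listed ORF was not tested.

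**Figure D4:**
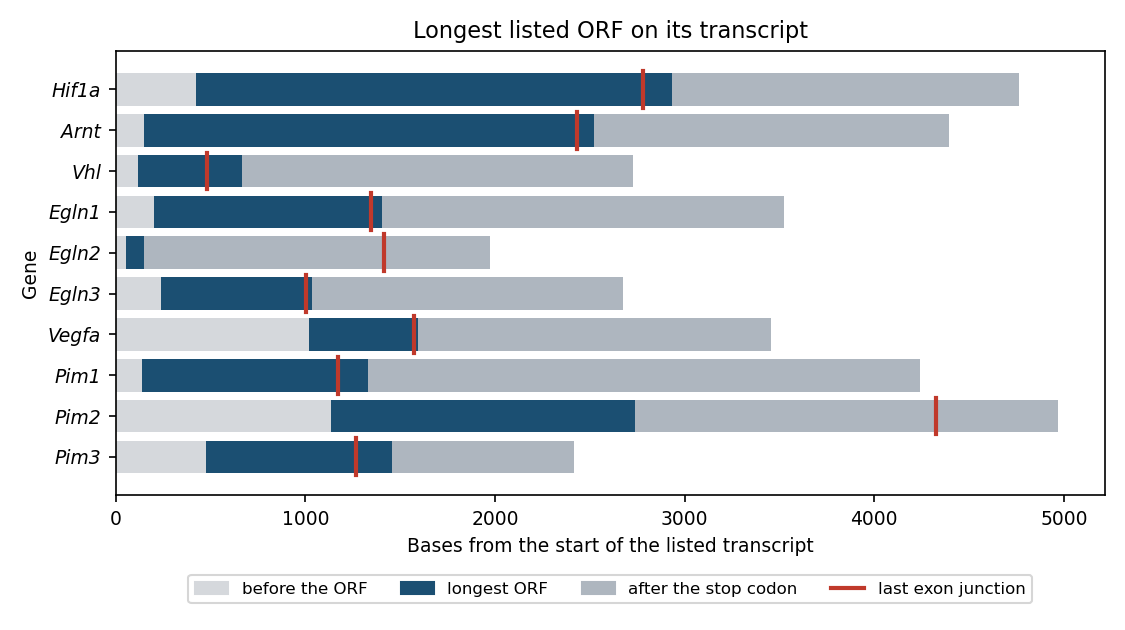
The longest listed ORF of each gene (dark blue) on its transcript, in bases from the transcript start, with the leader in light grey, the bases after the stop in darker grey and the last exon junction as a red line. In Egln2 and Pim2 the red line lies 1265 and 1586 bases after the stop, and in the other 8 genes it lies inside the ORF.

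Vegfa, the secreted ligand, had 2 splice variants of 190 and 146 codons from 1 start at chromosome 17, 46168305 on the minus strand. Both scored 936. They differed by 1 exon of 132 bases, at 46157940 to 46158071, which codes for 44 residues of the part of VEGFA that binds heparin and neuropilins. The leader had 1021 bases, longer than that of 93.9% of main ORFs. Among the 650 families with a leader of 1000 bases or more, 43.8% had an upstream ORF, and Vegfa and Pim2 were the members in that range, neither with one. Of the members with shorter leaders, 4 (Hif1a, Egln1, Egln3 and Pim3) were in the range of 200 to 500 bases, where 27.6% of families had one. Another 3 (Arnt, Vhl and Pim1) were in that of 100 to 200 bases, where 13.2% did, and Egln2 was below 100 bases, where 4.13% did.

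Pim1 had 2 in-frame ORFs on 1 transcript at chromosome 17, 29627700 to 29634604. The 397-codon ORF began at 29627837 and scored 667, and the 313-codon ORF began at 29628089 and scored 989. The shorter ORF thus began 84 codons inside the longer one and had the highest score of all 26 member ORFs, above that of 95.9% of all main ORFs. PIM1 is known from mouse cells as a long and a short kinase, the long one from a non-AUG start upstream in frame. The first codon of the 397-codon ORF was not read here. The difference of 322 was exceeded in 231 of 2396 families.

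Pim3 had a single ORF of 326 codons with a score of 948 at chromosome 15, 88693098 to 88695192. Its exon lengths followed those of Pim1. Between the first and the last of 6 exons, Pim1 had exons of 107, 51, 367 and 177 bases and Pim3 of 110, 51, 370 and 177 bases, all coding throughout. Pim1 had an in-frame ORF 84 codons longer than the high-scoring one, and no longer or shorter ORF was listed in Pim3.

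The ORFs named Pim2 did not have this layout. They lay on transcripts of 12 and 10 exons that spanned 35793 and 35361 bases at chromosome X, 7417989 to 7453781, against spans of 6905 bases in Pim1 and 3533 in Pim3. The main ORF of 534 codons used 10 coding exons, and none of the exons had 51 or 177 bases or a length near 367. In the RefSeq gene table (assembly GRCm38.p6, used for names and gene order), the protein-coding neighbours of Pim2 are Otud5 on one side and Slc35a2 on the other. Slc35a2 had a listed ORF, on a transcript that began 7588 bases after the end of the Pim2 transcripts, and Otud5, a deubiquitinase gene, had no family of its own in the list. The name Pim2 may therefore stand here for ORFs of another gene. This was not settled, since neither a gene annotation nor a genome sequence of the mm9 build was used. None of these ORFs is described as a kinase.

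Of these 4 ORFs, those of 534 and 523 codons began 33 bases apart, at 7419210 and 7419243, with scores of 608 and 948. The shorter, 11 codons inside, thus scored 340 above the longer, a difference exceeded in 189 of 2396 families. A 47-codon ORF from 7451061 with the same stop scored 580. A 3-codon ORF at 7451369 to 7451380, in another frame, scored 526. The common stop lay 1586 bases before the last junction, with 2227 bases after it. Without the Pim2 family, 4 of 9 genes had another in-frame start and 0 of 9 an upstream ORF.

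Of 74 other genes of these pathways, 67 had a listed ORF. Upstream ORFs were found in 7 of the 67, beside 20.2% of all families, and other in-frame starts in 17, beside 23.0%. In 12 of the 17, such a start scored above the longest ORF, beside 45.9% of all families with another in-frame start.

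HIF machinery, the subunits, ligase parts and coactivators around HIF1A, was listed in 17 of 18 genes, all but Hif3a. Of these, 1 had an upstream ORF, beside 20.2% of all families. It was Ep300, a histone acetyltransferase that HIF1A recruits, with an upstream ORF of 37 codons and a score of 732. Another in-frame start was found in 4 of the 17, beside 23.0% of all families. In 3 of these 4 it scored above the longest ORF, beside 45.9% of all families with another in-frame start. In Cited2, which competes with HIF1A for that coactivator, the 282-codon ORF scored 553 and the 269-codon ORF 957. In Os9, a lectin of the endoplasmic reticulum, the scores were 718 for 660 codons and 768 for 617. The 617-codon ORF had a leader of 42 bases, against 78 for the longest ORF, on a transcript that also held the main start. It therefore need not begin inside the longest ORF. In Usp20, a deubiquitinase, the scores were 763 for 953 codons and 817 for 916. Tceb1, the elongin C subunit of the VHL ligase, had the other order, with 970 for its longest ORF of 134 codons and 560 for 131 codons. The 131-codon ORF had a leader of 18 bases, against 124 for the longest ORF, on a transcript that also held the main start. As in Os9, it need not begin inside the longest ORF.

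HIF target genes were listed in 26 of 29, with Aldoa, Vldlr and Epo not listed. None of the 26 had an upstream ORF, beside 20.2% of all families, and 5 had another in-frame start, beside 23.0%. In 4 of these 5 it scored above the longest ORF, beside 45.9% of all families with another in-frame start. Ddit4, an inhibitor of mTORC1 signalling, scored 571 for its ORF of 247 codons and 897 for that of 229. Eno1, the glycolytic enolase, scored 642 for 453 codons and 947 for 434. Ero1l, an oxidase of the endoplasmic reticulum, scored 546 for 464 codons and 784 for 450. Kdm3a, a histone demethylase, scored 523 for 1326 codons and 678 and 711 for 1323 and 1322. In Ankrd37 the order was the other way, with 801 for 159 codons and 525 for 152.

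VEGF ligands and receptors were listed in 7 of 9 genes. Of the 7, 3 had an upstream ORF, beside 20.2% of all families, and 1 another in-frame start, beside 23.0%. Vegfb, a ligand related to Vegfa, had a 31-codon ORF over its main start with a score of 666. The coreceptors Nrp1 and Nrp2 had upstream ORFs of 4 codons (score 795) and of 34 and 28 codons (scores 597 and 821, with a common stop 313 bases before the main start). Flt4, a receptor tyrosine kinase, scored 561 for 1363 codons and 668 for the in-frame ORF of 1353.

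Inducers, substrates and partners of PIM kinases were listed in 17 of 18 genes. An upstream ORF was found in 3, Jak2, Socs1 and Akt1s1, beside 20.2% of all families, and another in-frame start in 7, beside 23.0%. In 4 of these 7 it scored above the longest ORF, beside 45.9% of all families with another in-frame start. Among these 4, Cdc25a, a phosphatase that PIM1 phosphorylates, scored 528, 580 and 606 for its ORFs of 514, 502 and 486 codons. Akt1s1, an mTORC1 inhibitor that PIM kinases phosphorylate, scored 731 for 257 codons and 842 for 244. Socs1, a feedback inhibitor, scored 669 for 212 codons and 896 for 93, and the kinase Map3k5 532 for 1368 codons and 627 for 1239. The longest ORF scored higher in Jak2, a kinase upstream of STAT factors, with 918 against 542 for its shorter in-frame ORFs. It did so too in the transcription factor Foxo3, with 788 against 609 and 739.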

How the data were processed

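Per the submitters' processing notes, Bowtie2, TopHat and the mm9 build were used, with no role or version stated. The sources used here name neither the ORF caller nor its transcript models. The authors deposited 1 list of ORFs for all 37 libraries, with transcript blocks, ORF span and a score whose meaning is not stated, and the score is used here only to describe and rank ORFs within this list.

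ORFs were grouped by gene name, and 0 of 22367 had a length in the name that differed from their coding bases. In each family the longest ORF served as the main ORF, with ties settled by score and then by name, and others were classed by stop, frame and position against it. The class rules were tested on simulated data, where 500 families held 4000 ORFs and 4000 received the right class. All ORFs of a simulated family lay on the same exons, and no splice variants were simulated. The splice variant class and families with several transcripts were therefore not tested. Whether an ORF is listed can depend on expression and depth, and the list records neither. Python 3.11.15 and matplotlib 3.10.9 were used.

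The members, the pathway and marker lists and the settings were chosen with earlier results of these data known. The text names all 10 members and, of the pathway lists, up to 6 genes per list that had other in-frame starts or upstream ORFs, ordered by their number of ORFs. No genome or protein sequence of these ORFs was used here, so none is printed and start codons were not read.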

Additional observations from a re-analysis of the deposited data

How the results depend on the processing

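The count of members with an upstream ORF was 0 under 7 of the 8 alternatives run, which changed the score minimum, the minimum length (10 or 30 codons), the main ORF rule, the counting of ORFs over the main start and the use of the Pim2 family. The share of all families with one ranged from 5.70% to 20.2% over them. In the other alternative, chosen after seeing the data, short main ORFs with 1000 or more bases after the stop counted as upstream, and the count was 1 (Egln2) beside 22.1% of families. The count of members with another in-frame start was 5 beside 23.0% of families. It was 0 with scores at or above the median of 847, beside 1.20%, and 0 with scores of 900 or more, beside 0.427%. In both settings 7 members were left, and these minimums removed Egln1, Egln2 and Egln3 whole and every start but the best-scoring one in Hif1a, Vhl, Pim1 and Pim2. It stayed within 1.5 times of 5 in the other alternatives, with 7 when splice variants were counted, beside 37.8% of families, and 4 of 9 without the Pim2 family, beside 23.0%, a setting chosen after seeing the data. The number of member ORFs fell from 26 to 11 with 1 ORF per stop codon and to 12 with either score minimum. A main ORF chosen by the length of the RefSeq protein was planned and not run, since no protein table was used here. No paired analysis was possible because the list has no value per library, and libraries could not be left out for the same reason. Depth is unknown, so an ORF that is not listed may be untranslated, too shallow, or absent from the transcript models. It may also have scored below the lowest listed score or be listed under another gene name.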
